A study of Homo sapiens with 12 samples.

Results

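Zoledronic acid was added to benzyl isothiocyanate in MDA-MB-231 cells, and the transcriptome of the combination was set against that of the isothiocyanate alone. MDA-MB-231 is a human triple-negative breast cancer line with mesenchymal features. The compared libraries are the 3 of the BITC+ZA group, from dishes that received 2 µM BITC together with 1 µM ZA, and the 3 of the BITC group, from dishes that received 2 µM BITC, each for 24 h. They are 6 of the 12 RNA-seq libraries of the study. The other 6 are 3 libraries of cells given 1 µM ZA and 3 of cells given vehicle (0.02% DMSO and 0.1% water), also for 24 h. BITC and ZA are the labels' abbreviations, read here as benzyl isothiocyanate and zoledronic acid from knowledge of the study. All groups are of 1 cell line in culture, plated in triplicate dishes. No label says more of how independent these dishes were, so the p-values may measure only technical spread. The members are all genes: 26310 had a count in at least 1 of the 6 libraries, and the 14363 that passed edgeR's filter on low counts were tested.

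BITC is an electrophile found in cruciferous vegetables that reacts with thiols. Reaction with the sensor protein KEAP1 releases the transcription factor NRF2, which drives antioxidant and glutathione genes. ZA, a bisphosphonate drug with a nitrogen-bearing ring, is given to patients with bone metastases. It inhibits farnesyl diphosphate synthase, encoded by FDPS, in the mevalonate pathway, the route that yields cholesterol and the isoprenoid lipids attached to small GTPases such as RHOB.

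Upstream sequences are shown for 4 genes whose values are given below. They are the 250 bases before the RefSeq start (build GRCh38.p14, plus strand, 5′ to 3′) of CXCL8 at chr4:73740319-73740568, CXCL1 at chr4:73869143-73869392, RHOB at chr2:20446824-20447073 and EGR1 at chr5:138465229-138465478. CXCL8 and CXCL1 are neutrophil-attracting chemokines whose change on adding ZA differed with and without BITC. RHOB is a prenylated small GTPase and EGR1 an immediate early transcription factor. Capitals mark GGAATTTCC, a kB-type motif, in both chemokine genes, CCAAT boxes on either strand in RHOB, and serum response elements (CArG boxes) in EGR1.
CXCL8: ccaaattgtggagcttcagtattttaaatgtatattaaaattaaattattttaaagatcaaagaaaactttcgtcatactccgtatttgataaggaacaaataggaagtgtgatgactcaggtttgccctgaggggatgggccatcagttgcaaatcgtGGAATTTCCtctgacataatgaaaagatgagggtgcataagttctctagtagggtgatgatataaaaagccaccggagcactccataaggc
CXCL1: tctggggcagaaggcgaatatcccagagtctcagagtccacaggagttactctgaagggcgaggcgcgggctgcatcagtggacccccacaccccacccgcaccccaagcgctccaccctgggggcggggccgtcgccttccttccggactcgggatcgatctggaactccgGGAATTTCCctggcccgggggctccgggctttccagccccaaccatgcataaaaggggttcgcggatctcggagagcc
RHOB: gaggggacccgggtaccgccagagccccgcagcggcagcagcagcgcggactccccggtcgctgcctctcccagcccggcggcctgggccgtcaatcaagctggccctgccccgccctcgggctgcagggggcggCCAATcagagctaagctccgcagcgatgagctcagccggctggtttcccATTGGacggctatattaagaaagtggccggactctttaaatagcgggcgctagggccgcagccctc
EGR1: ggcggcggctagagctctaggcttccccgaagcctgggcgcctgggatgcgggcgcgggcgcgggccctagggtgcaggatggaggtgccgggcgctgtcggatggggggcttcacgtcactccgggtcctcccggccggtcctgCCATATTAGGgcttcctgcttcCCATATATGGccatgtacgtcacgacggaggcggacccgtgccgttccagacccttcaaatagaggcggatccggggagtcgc
On both strands, GGAATTTCC was present in 0.428% of 27305 RefSeq upstream windows of this length and in 8 of 17 genes of a list of NF-kB targets that were tested and had a window. The CArG box was present in 1.14% of all windows and in 2 of 19 immediate early genes. CCAAT was present in 33% of all windows. The AP-1 motif TGANTCA was also found in the CXCL8 window and was present in 6.6% of all windows. Of the tested genes, 10134 had a window. Among those called higher and those called lower in BITC+ZA, GGAATTTCC was present in 0.285% and 0.362%, TGANTCA in 3.7% and 3.99%, CCAAT in 33.7% and 35.5%, and the CArG box in 0.997% and 1.03%. Over all tested genes with a window the shares were 0.424%, 3.93%, 35% and 0.987%. A match is a stretch of letters and not a measured binding site.

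The 6 libraries held 16058259 to 16702759 counts each, and the spread between replicates was small (common biological coefficient of variation 0.0429). Markers of MDA-MB-231 cells, including VIM, CD44, EGFR, CAV1, AXL and 3 others, summed to 5707 to 5757 CPM (read counts scaled to a common library size) in BITC+ZA and 5736 to 5815 in BITC libraries. A list of 8 luminal or HER2 markers summed to 340.2 to 345 CPM in BITC+ZA and 298 to 332 in BITC. Most of that was KRT19, at 226 to 232 CPM in BITC+ZA and 203 to 222 in BITC, with ERBB2 at 96.4 to 98.8 and 76.2 to 90.2 and GATA3 at 15.9 to 17.7 and 18.2 to 19.2, whereas ESR1 and FOXA1 had at most 0.125 CPM in BITC+ZA and 0 in BITC libraries. Fibroblast, endothelial and white blood cell markers summed to at most 22.7, 3.11 and 1.8 CPM in BITC+ZA, and at most 23.5, 3.59 and 1.23 in BITC. The 2 groups differed in composition: mitochondrially encoded transcripts took 4.73% to 4.88% of counts in BITC+ZA and 3.78% to 4.04% in BITC, and 21500 to 21573 against 20971 to 21107 genes had a count. In these data a lower amount of a transcript per cell and a lower share of cells that hold it cannot be told apart.

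Adding ZA to BITC gave many small differences. Of the 14363 genes tested, 3979 (27.7%) were called at an edgeR adjusted p below 0.05, 1912 higher (13.3%) and 2067 lower (14.4%) in BITC+ZA. The groups of libraries did not overlap for 5604 genes (39%) and for 3656 of the called genes. The median fold change of called genes was 1.173. At least a 1.5-fold difference was reached by 248 genes called higher and 56 called lower, and at least a 2-fold difference by 80 and 24. The large changes were thus mostly increases, whereas the calls as a whole were near evenly divided. When edgeR tested against a fold of 1.2 rather than against no change, 118 genes were called higher and 34 lower. A fit of all 12 libraries, in which the wider spread among ZA libraries enters the estimate, called 2205. Limma on log2(FPKM + 1) called 1109 higher and 1874 lower.

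**Figure D1:**
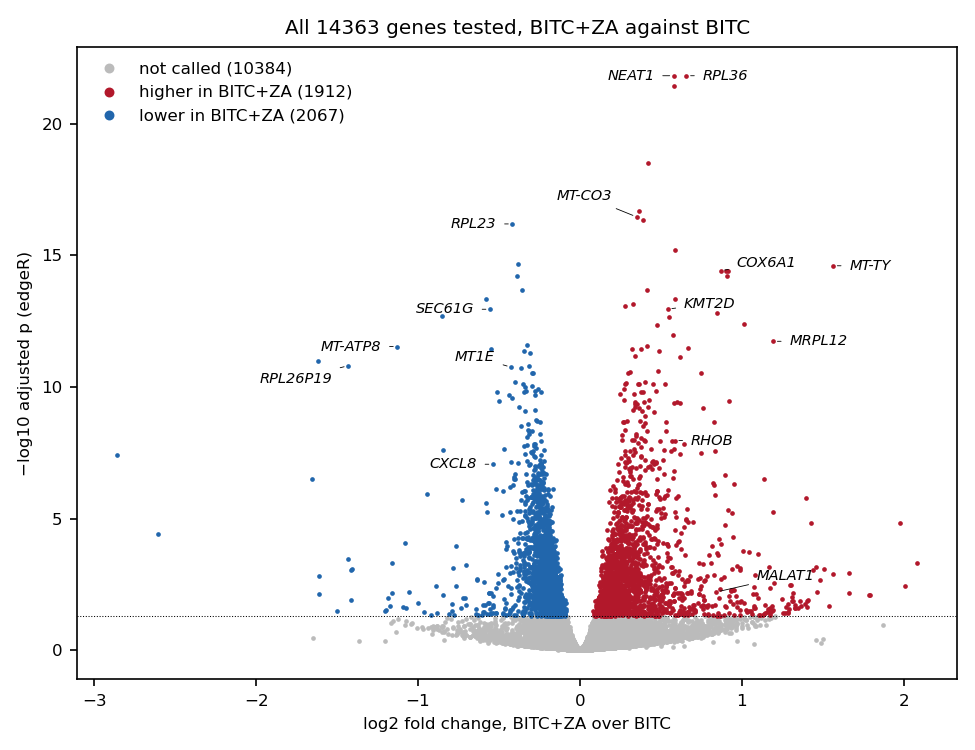
Each point is a gene, with the log2 fold change of BITC+ZA over BITC on the x axis and −log10 of the edgeR adjusted p on the y axis; the dotted line is the threshold of 0.05. Called genes number 1912 above 0 and 2067 below 0, and the points with the largest positive changes outnumber those with the largest negative ones.

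The direction of a call followed the GC content of the gene. The median GC content of the annotated transcripts was 58.5% for genes called higher, 42.1% for genes called lower and 48.9% for all genes tested. In the fifth of genes with the lowest GC content 1.71% were called higher and 35.4% lower, and in the fifth with the highest 34.9% and 0.592%. The deviation of each library from the gene mean rose with GC in the BITC+ZA libraries (Spearman correlations of 0.361, 0.313 and 0.443 over 14359 genes) and fell with it in the BITC libraries (−0.445, −0.474 and −0.0975). All 3 libraries of each group thus tilted the same way, and whether the tilt arose in the cells or in library preparation cannot be told apart. After each library was corrected for a smooth trend in GC and length, 2212 genes (15.4%) were called, 703 higher (4.89%) and 1509 lower (10.5%). The share of calls that were higher was then 31.8%, compared with 48.1% without correction. Of the 3979 genes, 1514 (38%) were called in the same direction after correction and 17 in the opposite one. The correction also removes any real change that follows GC, so corrected values are given below where they ended a call or moved a called change by over 1.5 times. A gene is described as higher or lower from the uncorrected fit. Counts of list members after correction are of all members called then, including members not called without it.

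**Figure D2:**
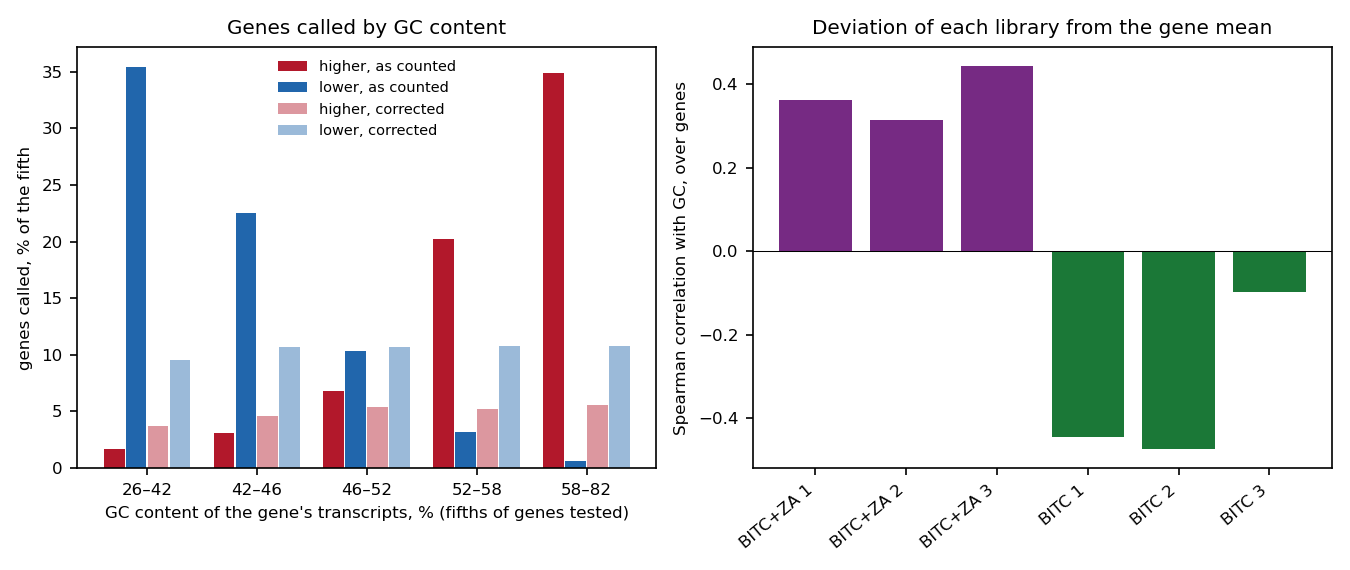
Left, percent of genes called higher and lower in BITC+ZA in 5 equal bins of genes by GC content, as counted (dark) and after GC and length correction (pale). Right, Spearman correlation over genes of each library's deviation from the gene mean with GC content, positive in the 3 BITC+ZA libraries and negative in the 3 BITC libraries.

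RHOB, whose protein carries the isoprenoid lipids made by ZA's known target pathway, was higher in BITC+ZA. This gene, at chr2:20447074-20449445 on the plus strand, had 33.0, 32.5 and 32.1 CPM in BITC+ZA and 22.0, 22.2 and 20.8 CPM in BITC. All BITC+ZA libraries lay above all BITC libraries. The log2 fold change was 0.59 ± 0.080 (SE, edgeR adjusted p = 1.07e-08), and 0.45 after correction. ZA alone gave a log2 change of 0.76 over vehicle (edgeR adjusted p = 1.83e-06), and the difference between both effects of ZA, with BITC minus without, was −0.17 (edgeR adjusted p = 0.404). RHOC, a relative with roles in cell motility, was also higher, at 168 ± 2.5 CPM in BITC+ZA and 129 ± 9.2 in BITC (SD, n = 3 each), a log2 change of 0.38 that became 0.20 after correction. Of 18 related small GTPases and regulators tested, 4 were called higher and 5 lower (3 and 3 after correction), a called share of 50% against 27.7% over all genes. Their median log2 change was −0.07.

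Calls among genes of the mevalonate and sterol pathway were mostly higher. Of 20 tested, 6 were called higher and 1 lower (4 and 0 after correction), a called share of 35% against 27.7% over all genes, with a median log2 change of 0.10 against 0.00 for all genes. In both fits 2 were called higher and 0 lower. FDPS itself had 64.3, 69.5 and 69.6 CPM in BITC+ZA and 56.6, 58.1 and 63.4 CPM in BITC. The groups did not overlap, and the log2 change was 0.19 ± 0.058 (edgeR adjusted p = 0.00766). That call was lost after correction (0.11) and without BITC library 1 or BITC+ZA library 3 (highest adjusted p 0.0746). LSS, which makes lanosterol, had 133 ± 3.2 CPM in BITC+ZA and 105 ± 1.7 in BITC, a log2 change of 0.35 (0.16 after correction). CYP51A1, the next demethylase on that route, was at 6.1 ± 0.64 CPM against 3.96 ± 1.2, a log2 change of 0.62 that lost its call without BITC library 1 or BITC+ZA library 3. It shares exons with an antisense gene, CYP51A1-AS1. DHCR7, the last enzyme of cholesterol synthesis, was higher by 0.25 on the log2 scale (0.12 and not called after correction).

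Calls among related lipid genes went in both directions. HMGCS1, an early synthase of the mevalonate pathway, had 50.4 ± 2.5 CPM in BITC+ZA and 47.8 ± 1.3 in BITC, and was called only after correction, at a log2 change of 0.20. The sterol sensor partner INSIG1 had a log2 change of 0.01. Of 15 genes of SREBP regulation and sterol uptake, 2 were called higher and 1 lower (0 and 3 after correction), a called share of 20% against 27.7% over all genes. In both fits 0 were called higher and 1 lower. Of 17 genes of protein prenylation, 2 were called higher and 3 lower (1 and 2 after correction), a called share of 29.4%. GGPS1, which makes geranylgeranyl diphosphate, had a log2 change of −0.23 (edgeR adjusted p = 0.193). COQ2, which attaches the isoprenoid tail of ubiquinone, was lower, at 23.9, 23.9 and 24.2 CPM in BITC+ZA and 31.8, 28.9 and 31.1 CPM in BITC (log2 change −0.35 ± 0.079). Of 11 genes of fatty acid synthesis, 3 were called each way (1 each way after correction), a called share of 54.5%. FASN, the fatty acid synthase, was higher by 0.27 on the log2 scale, which became 0.02 after correction. SCD, the stearoyl desaturase, was higher by 0.13 and by 0.16 after correction, a call lost without BITC+ZA library 2.

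Immediate early genes that passed the test were higher in BITC+ZA. Of 25 tested, 11 were called higher and none lower, a called share of 44% against 27.7% over all genes. The median log2 change was 0.17. After correction 8 were called higher and 3 lower, and the median was 0.02. EGR1 had 138, 135 and 149 CPM in BITC+ZA and 105, 106 and 108 CPM in BITC, with no overlap and a log2 change of 0.40 ± 0.047 (edgeR adjusted p = 6.51e-11; 0.30 after correction). FOSB, an AP-1 subunit, had 10.4, 8.88 and 8.78 CPM in BITC+ZA and 5.30, 7.27 and 5.80 CPM in BITC, a log2 change of 0.61 ± 0.15. ZFP36, which encodes a protein that speeds decay of cytokine mRNAs, had 26.8 ± 1.1 CPM in BITC+ZA and 18.4 ± 1.7 in BITC, and IER2 had 51.1 ± 2.9 and 36.3 ± 2.0 CPM (SD, n = 3 each), a log2 change of 0.50 that became 0.29 after correction. JUN, the main partner of FOS proteins, was higher by 0.23 on the log2 scale, and by 0.10 after correction. FOS was at 32.2 ± 1.3 CPM in BITC+ZA and 28.5 ± 1.9 in BITC and did not pass the test (edgeR adjusted p = 0.0804). ATF3, a stress-induced factor of the same family, was higher by 0.35 ± 0.11, a call lost without BITC library 2 or BITC+ZA library 3. The levels of 8 transcripts in all 12 libraries are plotted below with the groups side by side.

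**Figure D3:**
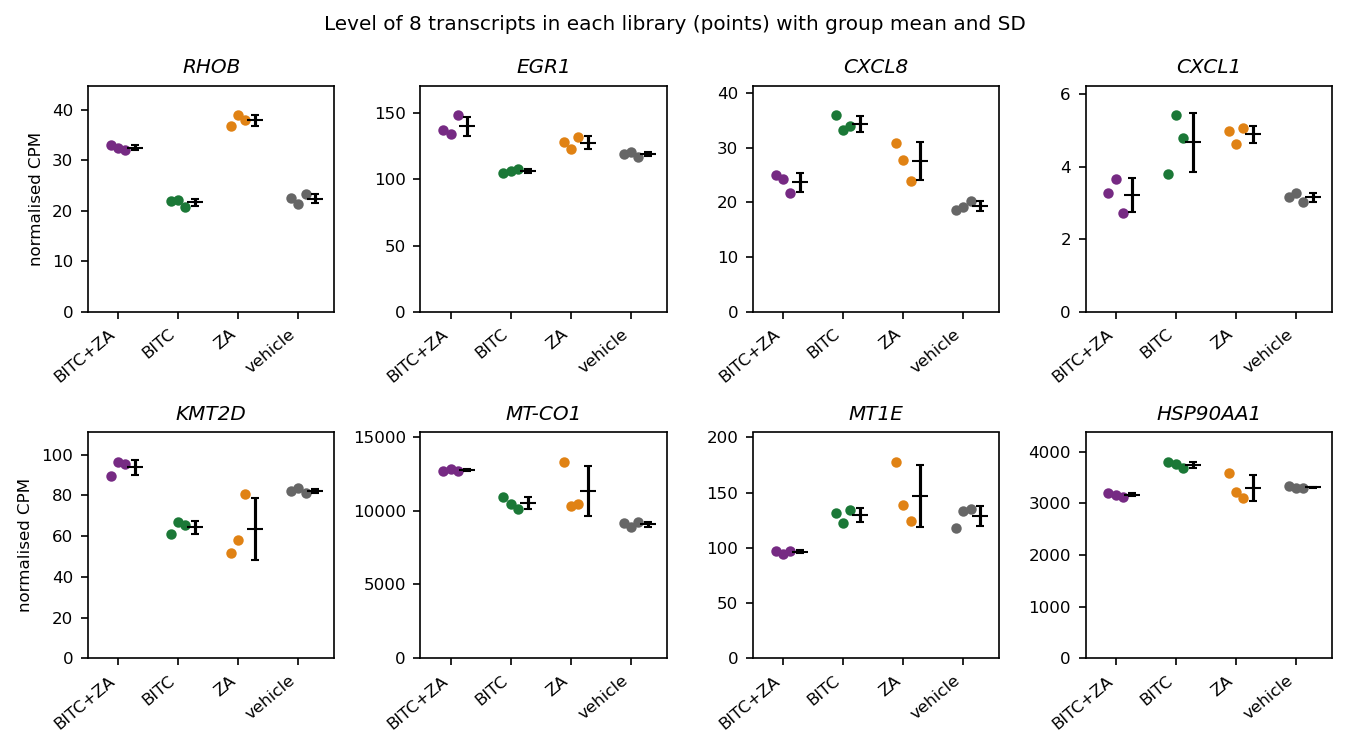
Normalised CPM of 8 transcripts in each of the 12 libraries (points), with group mean and SD (bars), BITC+ZA left of BITC and ZA left of vehicle. RHOB is high in both groups that received ZA, CXCL8 and CXCL1 are lower in BITC+ZA than in BITC but higher in ZA than in vehicle, ZA library 1 lies above the other ZA libraries for MT-CO1 and MT1E, and ZA library 3 lies above them for KMT2D.

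Genes of the integrated stress response, in which the factor ATF4 answers to phosphorylation of eIF2α, moved in both directions. Of 25, 5 were called higher and 2 lower (3 and 3 after correction), a called share of 28%, near the 27.7% over all genes. PPP1R15A, the phosphatase subunit that reverses eIF2α phosphorylation, had 174, 166 and 171 CPM in BITC+ZA and 125, 127 and 144 CPM in BITC (log2 change 0.37 ± 0.045; 0.22 after correction). DDIT4, an inhibitor of mTORC1 signalling, was at 58.5 ± 2.6 CPM in BITC+ZA and 44.8 ± 3.1 in BITC (log2 change 0.39; 0.20 after correction). DDIT3, which encodes the factor CHOP, had 8.88, 9.13 and 9.96 CPM in BITC+ZA and 5.30, 6.77 and 8.49 in BITC; its log2 change of 0.44 ± 0.15 lost its call without any one of BITC libraries 1 and 2 and BITC+ZA library 3, and with DESeq2 (adjusted p = 0.0536). DDIT3 also shares exons with MARS and MBD6 on the other strand.

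Chemokine and cytokine transcripts split by gene. CXCL8, at chr4:73740506-73743716, had 24.98, 24.4 and 21.7 CPM in BITC+ZA and 35.9, 33.3 and 34.0 CPM in BITC. All BITC+ZA libraries lay below all BITC libraries (log2 change −0.54 ± 0.079, edgeR adjusted p = 8.52e-08; −0.40 after correction). CXCL1, chosen after its values were seen, had 3.28, 3.66 and 2.72 CPM in BITC+ZA and 3.81, 5.42 and 4.81 CPM in BITC, a log2 change of −0.54 ± 0.20 (edgeR adjusted p = 0.0367). It was no longer called after correction (−0.52) or without any one of BITC libraries 2 and 3 and BITC+ZA libraries 1 and 3. IL6 was at 15.2 ± 0.78 CPM in BITC+ZA and 18.5 ± 1.1 in BITC, a call lost after correction and without any one of 3 libraries, BITC library 1 and BITC+ZA libraries 2 and 3. LIF, another member of the IL6 cytokine family, was higher, at 54.0, 51.6 and 54.8 CPM in BITC+ZA and 35.9, 40.2 and 40.9 CPM in BITC (log2 change 0.45 ± 0.066; 0.31 after correction). DESeq2 called neither CXCL1 (adjusted p = 0.0903) nor IL6 (adjusted p = 0.0614). Of 19 NF-kB targets and CXC chemokines, 4 were called higher and 5 lower (1 and 2 after correction), a called share of 47.4% against 27.7% over all genes.

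Of 15 bone metastasis and osteoclast factors, 1 was called higher and 4 lower (1 and 1 after correction), a called share of 33.3% against 27.7% over all genes. IL11, a cytokine linked to osteolysis, was at 38.1 ± 2.1 CPM in BITC+ZA and 36.5 ± 1.0 in BITC, with a log2 change of 0.06 (−0.11 after correction). INHBA, which encodes the activin A subunit, had a log2 change of 0.13 (edgeR adjusted p = 0.379), and CEMIP, which depolymerises hyaluronan, one of 0.07 (−0.02 after correction). PTHLH, the parathyroid hormone-like hormone, did not pass the filter on low counts. VEGFA, the angiogenic growth factor, was higher by 0.25 on the log2 scale, which became 0.06 and lost its call after correction. Among 23 genes of TGF-beta signalling, 4 were called lower and none higher (6 and none after correction). That called share of 17.4% was below the 27.7% over all genes. In both fits 2 were called lower. ID1, an inhibitor of basic helix-loop-helix factors, was at 91.2 ± 1.1 CPM in BITC+ZA and 104 ± 3.1 in BITC (log2 change −0.19, and −0.34 after correction).

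The called genes of chromatin regulation were higher in BITC+ZA. Of 26 KMT2 family and chromatin regulators, 12 were called higher and none lower (6 and 1 after correction), a called share of 46.2% against 27.7% over all genes. This list was written with earlier results of these data known. KMT2D, a histone H3K4 methyltransferase of enhancers, had 89.6, 96.6 and 95.4 CPM in BITC+ZA and 60.9, 66.8 and 65.5 CPM in BITC, with no overlap (log2 change 0.54 ± 0.053; 0.28 after correction). KMT2B was at 97.3 ± 3.1 CPM in BITC+ZA and 74.2 ± 0.94 in BITC, and KMT2A at 171 ± 9.8 and 140 ± 10 CPM. Their log2 changes of 0.39 and 0.29 both became 0.16 after correction. AHNAK, a very large scaffold protein, had 1886, 1999 and 1952 CPM in BITC+ZA and 1509, 1627 and 1520 CPM in BITC (log2 change 0.33 ± 0.032; 0.20 after correction). UBR4, a very large ubiquitin ligase, and MDN1, a very large AAA ATPase of 60S ribosome assembly, were higher by 0.28 and 0.37 on the log2 scale, and by 0.12 and 0.30 after correction. Of 23 collagens and laminins, 11 were called higher and 1 lower, and 3 and 2 after correction, when the median log2 change was −0.04 instead of 0.17. Without correction the called share was 52.2%. LAMA5 was at 320 ± 13 CPM in BITC+ZA and 240 ± 9.9 in BITC, and COL7A1 at 96.3 ± 0.86 and 70.4 ± 5.2 CPM. Their log2 changes of 0.41 and 0.45 became 0.14 and 0.20 after correction.

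The nuclear non-coding RNA NEAT1, which builds paraspeckles, had among the smallest adjusted p-values of the comparison (1.49e-22, edgeR; chosen after its values were seen). It was at 364, 358 and 380 CPM in BITC+ZA and 240, 242 and 254 CPM in BITC, with a log2 change of 0.58 ± 0.038 and of 0.52 after correction. Its neighbour MALAT1, likewise chosen after its values were seen, had 193, 226 and 203 CPM in BITC+ZA and 98.9, 125 and 123 CPM in BITC (log2 change 0.84 ± 0.12, edgeR adjusted p = 0.00607). By annotated class, 24 of 444 lincRNAs were called higher and 5 lower, and 54 of 567 antisense genes higher and 7 lower. The called shares, 6.53% and 10.8%, were below the 27.7% over all genes. The shares called higher, 5.41% and 9.52%, were also below the 13.3% over all genes. The shares called with a fold of at least 1.5, 3.6% and 8.11%, were above the 2.12% over all genes. The median log2 change of the antisense genes was 0.17. In BITC+ZA libraries lincRNAs took 0.357% to 0.362% of counts and antisense genes 0.242% to 0.244%, against 0.317% to 0.322% and 0.221% to 0.226% in BITC libraries. How strand was treated in counting was not given in the sources used here, so reads of antisense genes cannot be told apart from those of their partners.

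Transcripts of the mitochondrial genome were higher in BITC+ZA. Of the 13 protein-coding ones, 10 were called higher and 1 lower, and 11 and 1 after correction. Without correction the called share was 84.6% against 27.7% over all genes. The median log2 change was 0.28, and 0.32 after correction. MT-CO1, a cytochrome c oxidase subunit, had 12696, 12820 and 12746 CPM in BITC+ZA and 10936, 10457 and 10111 CPM in BITC. MT-ND4, MT-CO3 and MT-ATP6, of complexes I, IV and V, were higher by 0.36, 0.35 and 0.39 on the log2 scale. The exception, MT-ATP8, had 7.75, 8.88 and 8.84 CPM in BITC+ZA and 14.97, 20.8 and 19.8 CPM in BITC (log2 change −1.13 ± 0.12). It overlaps MT-ATP6 on the same strand, and reads of the shared stretch cannot be assigned to either with certainty. Of 12 mitochondrial tRNAs tested, 7 were called higher and none lower, a called share of 58.3% against 27.7% over all genes. The largest of these changes was that of MT-TY, the tyrosine tRNA, which overlaps MT-TC and had 14.6, 13.2 and 13.4 CPM in BITC+ZA and 4.99, 4.62 and 4.31 CPM in BITC.

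Nuclear genes of mitochondrial and cytosolic protein synthesis did not move as a block. Of 42 nuclear-encoded respiratory chain genes, 12 were called higher and 10 lower (8 and 10 after correction), and of 25 mitochondrial ribosomal proteins 9 and 3 (4 and 2 after correction). Those called shares were 52.4% and 48%, against 27.7% over all genes. COX6A1, an oxidase subunit, was at 40.3 ± 3.2 CPM in BITC+ZA and 22.1 ± 1.9 in BITC, and COX8A at 115 ± 7.3 and 76.4 ± 2.7 CPM (log2 change 0.59; 0.38 after correction). In the opposite direction, COX7B was at 45.5 ± 3.0 CPM in BITC+ZA and 64.8 ± 2.1 in BITC. MRPL12 had 17.8, 14.3 and 19.6 CPM in BITC+ZA and 8.05, 6.47 and 8.11 CPM in BITC (log2 change 1.19 ± 0.12). Of 45 cytosolic ribosomal proteins, 10 were called higher and 22 lower (5 and 21 after correction), a called share of 71.1%. RPL36 had 304, 300 and 313 CPM in BITC+ZA and 190, 181 and 210 CPM in BITC, a log2 change of 0.66. RPL23 was at 502 ± 21 CPM in BITC+ZA and 670 ± 11 in BITC, RPS15 at 589 ± 13 and 767 ± 29, and RPS19 at 672 ± 4.0 and 822 ± 15.

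Many of these small genes share sequence with pseudogenes or exons with neighbours. RPL26 had 34.9, 32.5 and 37.1 CPM in BITC+ZA and 20.03, 17.5 and 18.3 CPM in BITC, whereas its pseudogene RPL26P19 had 3.40, 4.90 and 3.65 CPM in BITC+ZA and 9.73, 11.02 and 11.5 CPM in BITC. The parent gene and the copy thus moved in opposite directions, and reads cannot be assigned to either with certainty. Of 375 processed pseudogenes tested, 31 were called higher and 53 lower, a called share of 22.4% against 27.7% over all genes. Among large changes the order was reversed. With a fold of at least 1.5, 13 pseudogenes were called higher and 29 lower, or 11.2% of the class against 2.12% of all genes. Those 29 were among the 56 genes of any class called lower at that fold. At a fold of at least 1.5, 172 genes that share exon bases with another gene were called higher and 13 lower, out of 7006, against 76 higher and 43 lower out of 7357 without shared bases. When ZA library 1 entered the spread in a fit of all 12 libraries, RPL26, RPL26P19, COX6A1, COX8A, MRPL12, SEC61G and MT-ATP8 were not called, and neither were ATF3, HMOX1, CYP51A1, CXCL1 and IL6.

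Heat shock and endoplasmic reticulum chaperones were mostly lower among those called. Of 19 heat shock proteins and cytosolic chaperones, 4 were called higher and 9 lower (3 and 12 after correction), a called share of 68.4% against 27.7% over all genes. HSP90AA1, the inducible cytosolic HSP90, had 3199, 3180 and 3140 CPM in BITC+ZA and 3806, 3770 and 3684 CPM in BITC, with no overlap (log2 change −0.24 ± 0.029; −0.18 after correction). HSPH1, an HSP70 exchange factor, was at 288 ± 5.9 CPM in BITC+ZA and 348 ± 16 in BITC (log2 change −0.27; −0.16 after correction). The inducible HSP70 gene HSPA1A went the other way, at 31.9 ± 2.4 CPM in BITC+ZA and 22.7 ± 0.72 in BITC (log2 change 0.49, and 0.32 after correction). HSPA1A has a near-identical copy, so its reads are uncertain. Of 20 endoplasmic reticulum chaperones and unfolded protein response genes, 2 were called higher and 6 lower (0 and 6 after correction), a called share of 40%. HSP90B1 was at 939 ± 20 CPM in BITC+ZA and 1116 ± 23 in BITC, and HSPA5, the lumenal HSP70, at 979 ± 17 and 1123 ± 6.1 CPM; the log2 change of HSP90B1, −0.25, became −0.14 after correction. Of 28 proteasome genes, 3 were called higher and 11 lower (2 and 6 after correction), a called share of 50%. PSMD12 was at 179 ± 4.0 CPM in BITC+ZA and 217 ± 9.0 in BITC (log2 change −0.28, and −0.15 after correction).

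NRF2 targets, the genes that BITC is known to induce, were called in both directions. Of 34 tested, 3 were called higher and 4 lower, a called share of 20.6% against 27.7% over all genes, and after correction 0 and 6, with a median log2 change of 0.00. In both fits 0 were called higher and 1 lower. NQO1, a quinone reductase, had 420, 406 and 405 CPM in BITC+ZA and 435, 439 and 435 CPM in BITC, without overlap, a log2 change of −0.09 ± 0.035 (edgeR adjusted p = 0.0537, and 0.0363 with DESeq2). BITC against vehicle, which uses the same BITC libraries, gave 0.80 for NQO1. GCLM, the modifier subunit of glutathione synthesis, fell by 0.17 on the log2 scale (a change of −0.04, not called, after correction), and TXN, thioredoxin, fell by 0.22 (−0.07, not called). SLC7A11, the cystine importer, had a log2 change of −0.09 (0.01 after correction), and FTL, ferritin light chain, one of −0.07 (−0.21 and called after correction). HMOX1, heme oxygenase, was higher by 0.34 ± 0.096, which became 0.17 and lost its call after correction and was not called without BITC+ZA library 3. Metallothioneins bind zinc and copper. MT1E was at 97.7, 95.1 and 97.3 CPM in BITC+ZA and 132, 123 and 135 CPM in BITC (log2 change −0.42 ± 0.048; −0.53 after correction), and MT2A at 437 ± 27 and 495 ± 4.0 CPM (−0.18; −0.30 after correction). Of 9 metallothionein and zinc transport genes, these were the 2 called lower, and none was called higher. That called share of 22.2% was below the 27.7% over all genes. After correction 3 were called lower and none higher, with a median log2 change of 0.0008.

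Most called transcripts of the cell cycle were lower in BITC+ZA. Of 22 G2/M and mitosis genes, 14 were called lower and 2 higher (9 and 0 after correction), a called share of 72.7% against 27.7% over all genes. The median log2 change was −0.15, or −0.08 after correction. TOP2A, the mitotic topoisomerase, had 995, 1027 and 1005 CPM in BITC+ZA and 1216, 1228 and 1130 CPM in BITC (log2 change −0.24 ± 0.033; −0.12 after correction). CCNB1, cyclin B1, was at 429 ± 7.3 CPM in BITC+ZA and 507 ± 9.8 in BITC, and TPX2, a spindle assembly factor, at 609 ± 11 and 713 ± 21 CPM. The proliferation marker MKI67 did not pass the test, at 705 ± 36 CPM in BITC+ZA and 682 ± 38 in BITC (edgeR adjusted p = 0.345). Of 22 genes of DNA replication and S phase, 9 were called lower and 1 higher (11 and 0 after correction), a called share of 45.5%. In both fits 5 were called lower. Among these was RRM1, a ribonucleotide reductase subunit, at 317 ± 14 CPM in BITC+ZA and 367 ± 13 in BITC (log2 change −0.21, and −0.12 after correction). The median GC content of the G2/M list was 44.6%, below the 48.9% of all genes.

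The remaining lists held calls in both directions or few calls. Among 25 actin cytoskeleton and tropomyosin genes 10 were called higher and 8 lower (4 and 13 after correction), and among 24 hypoxia and glycolysis genes 7 and 1 (2 and 5). Those called shares were 72% and 33.3%, against 27.7% over all genes. In both fits 1 hypoxia and glycolysis gene was called higher and 0 lower. Of 14 mesenchymal genes, 1 was called higher and 6 lower (0 and 5 after correction), with VIM among the lower ones at 1105 ± 23 CPM in BITC+ZA and 1220 ± 43 in BITC. Of 19 epithelial keratin and junction genes, 4 were called higher and none lower (1 and 2 after correction, with a median log2 change of −0.06). Of 21 interferon-stimulated genes, 2 were called higher and 5 lower (1 and 3 after correction). Counts called higher and lower were 2 and 4 of 21 YAP and TEAD targets, 2 and 3 of 18 matrix protease genes, 2 and 5 of 20 autophagy and lysosome genes, 2 and 2 of 11 tubulins, 2 and 2 of 19 p53 targets, 3 and 1 of 14 BCL2 family genes, 0 and 1 of 15 membrane transporters, and 0 and 0 of 9 replication-dependent histones. Against 27.7% over all genes, the called shares were 28.6% for YAP and TEAD targets, 27.8% for matrix proteases and 35% for autophagy and lysosome genes. They were 36.4% for tubulins, 21.1% for p53 targets and 28.6% for the BCL2 family. For mesenchymal, epithelial and interferon-stimulated genes they were 50%, 21.1% and 33.3%, and for membrane transporters 6.67%. After correction the tubulins had 0 and 5, the BCL2 family 1 and 0, and the histones 0 and 2. In the identity lists, 1 and 2 of 8 MDA-MB-231 markers and 1 and 0 of 3 luminal or HER2 markers were called. None of the 3 fibroblast, 1 endothelial and 1 white blood cell markers tested was called. Several lists that tilted upwards in the uncorrected fit had a median at or below 0 after correction, in the plot of list counts and medians.

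**Figure D4:**
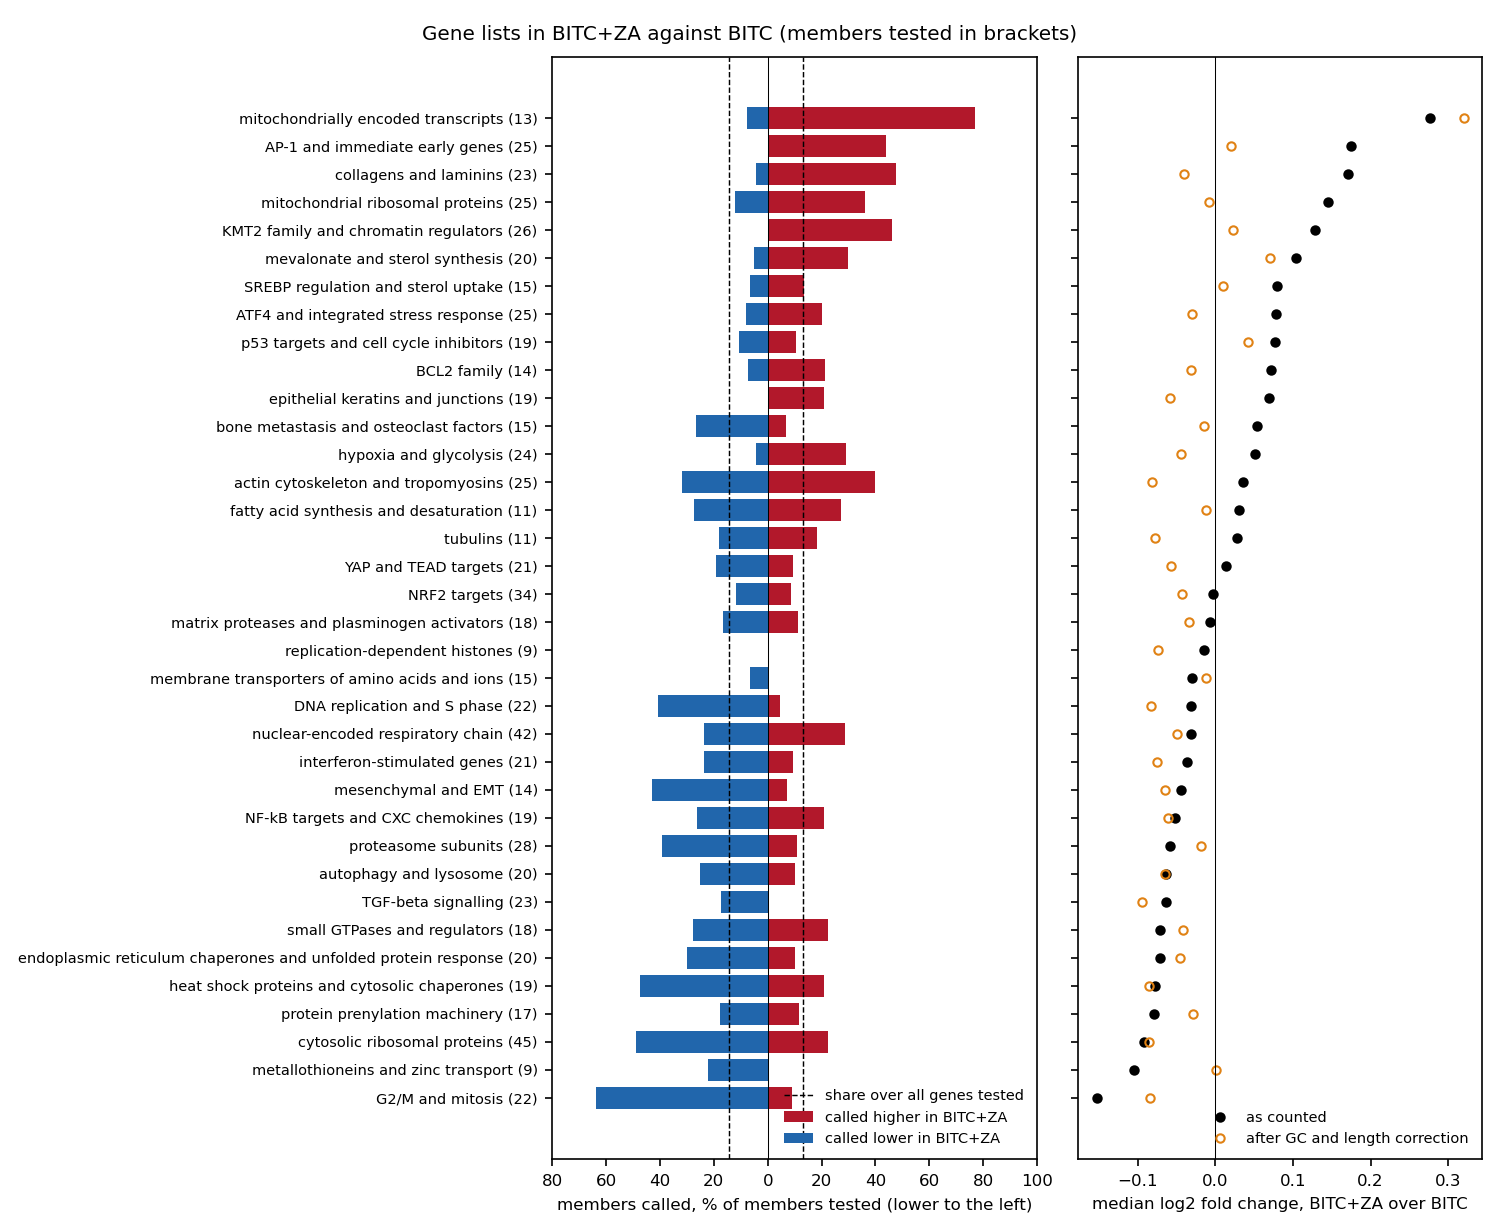
Left, percent of the tested members of each gene list called higher (right) and lower (left) in BITC+ZA against BITC, with dashed lines at the shares over all genes, 13.3% and 14.4%. Right, median log2 fold change of each list as counted (filled) and after GC and length correction (open); the mitochondrially encoded list lies furthest to the right both ways, at 0.28 and 0.32.

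Among coding genes with a mean of at least 5 CPM and groups that did not overlap, the largest increases included MRPL12, RPL26 and COX6A1, given above, NT5C, a nucleotidase, at 18.3 ± 0.52 CPM in BITC+ZA and 9.67 ± 1.0 in BITC, and FKBP2, a peptidyl-prolyl isomerase of the endoplasmic reticulum, at 36.7 ± 3.4 and 19.6 ± 2.1 CPM. The largest decreases included MT-ATP8 and CXCL8, SEC61G, a subunit of the protein translocation channel, at 60.3 ± 3.7 CPM in BITC+ZA and 88.6 ± 2.8 in BITC, and COMMD6, at 13.3 ± 1.1 and 19.7 ± 0.53 CPM.

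The effect of ZA was then set against its effect without BITC. ZA against vehicle shares no library with BITC+ZA against BITC. Of the 3979 called genes, 63.5% had the same sign in ZA against vehicle, and 80.9% when ZA library 1 was left out. That library held 4.95% mitochondrially encoded counts, against 3.88% and 3.92% in the other ZA libraries. Over all 14363 genes 58.1% had the same sign. Pearson's r over the called genes was 0.271, and 0.573 without that library; genes are not independent replicates, and the log2 change correlated with GC in both comparisons (Spearman 0.519 in BITC+ZA against BITC, and 0.294 in ZA against vehicle, or 0.486 without that library). Of the 2212 genes called after GC and length correction of BITC+ZA against BITC, 52.4% had the same sign in ZA against vehicle, which was not corrected. A direct test of the difference between the 2 effects called 425 of 14950 genes (2.84%), 196 (1.31%) with a more positive change in the presence of BITC and 229 (1.53%) with a more negative one. Without ZA library 1, 854 of 15275 (5.59%) were called, and leaving out other single libraries gave from 96 (without BITC library 1) to 921 (without ZA library 3).

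CXCL8 had the smallest p-value among named genes in that test over all 12 libraries. Its level was 23.6 CPM in BITC+ZA, 34.4 in BITC, 27.5 in ZA and 19.3 in vehicle (means, n = 3 each, all 12 libraries normalised together). Its log2 change on adding ZA was −0.54 in the presence of BITC and 0.51 in its absence (edgeR adjusted p = 0.00738 for ZA against vehicle), a difference of −1.05 ± 0.13 (edgeR adjusted p = 0.000153). CXCL1 followed the same pattern, with means of 3.21 CPM in BITC+ZA, 4.67 in BITC, 4.89 in ZA and 3.15 in vehicle, a difference of −1.17 ± 0.26 (edgeR adjusted p = 0.015), though its change under ZA alone did not pass the test (0.63, edgeR adjusted p = 0.0824; 0.62 and 0.0343 without ZA library 1). Both chemokines carry the GGAATTTCC motif shown above, and whether it has a part in this pattern was not tested. AHNAK averaged 1941 CPM in BITC+ZA, 1550 in BITC, 1642 in ZA and 1890 in vehicle, so that it was higher with ZA where BITC was present and lower with ZA where BITC was absent (edgeR adjusted p = 0.0317 for ZA against vehicle; difference 0.53 ± 0.067). UBR4, MDN1 and KMT2A had the same opposite signs, with differences of 0.51, 0.60 and 0.54, although the change of MDN1 in ZA against vehicle did not pass the test (−0.23, edgeR adjusted p = 0.0502; 0.0121 without ZA library 1). For KMT2D the difference was 0.91 ± 0.17, and its change in ZA against vehicle, −0.37, did not pass either (edgeR adjusted p = 0.159). AHNAK, UBR4, MDN1 and KMT2A were named because their p-values in that test were among the 5 smallest. After GC and length correction the differences were 0.29 for AHNAK, 0.23 for UBR4, 0.41 for MDN1, 0.27 for KMT2A and 0.61 for KMT2D. RHOB, in contrast, averaged 32.5 CPM in BITC+ZA, 21.6 in BITC, 37.9 in ZA and 22.4 in vehicle.

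**Figure D5:**
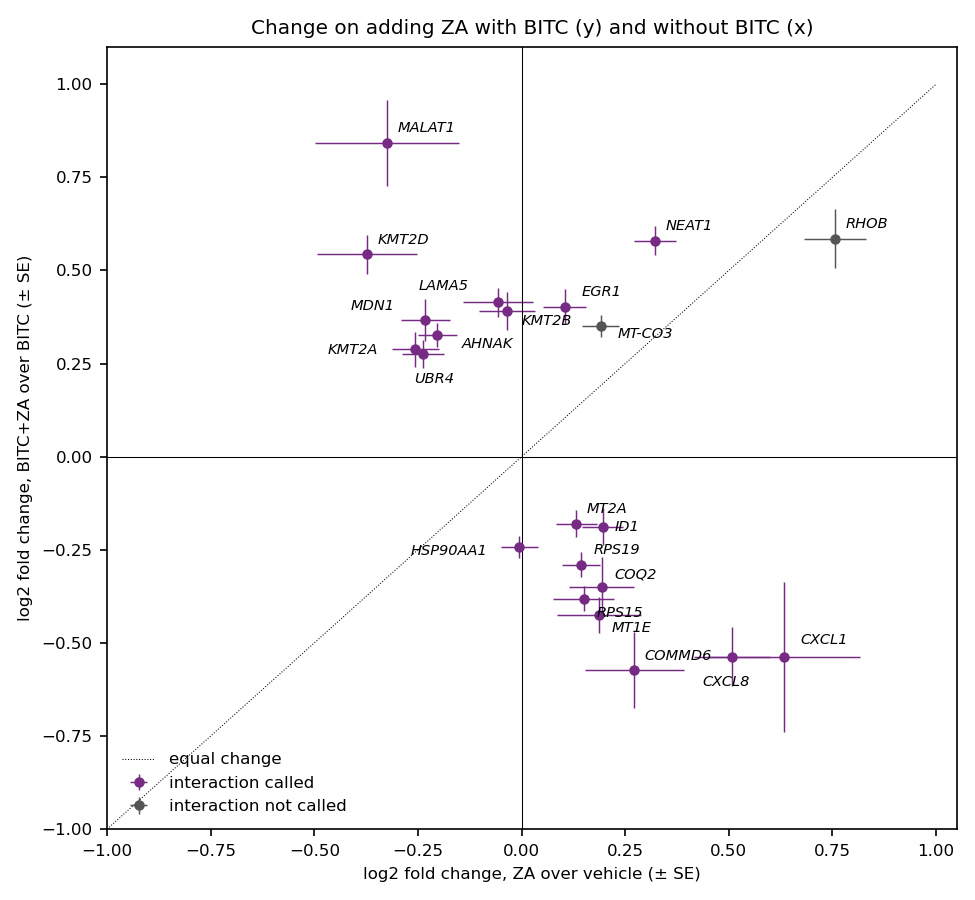
Log2 fold change of BITC+ZA over BITC (y axis, fit of 6 libraries) against that of ZA over vehicle (x axis, fit of 12 libraries) for 22 named genes, with SE. CXCL8 and CXCL1 lie in the lower right, KMT2D, AHNAK, UBR4, MDN1 and KMT2A in the upper left, and RHOB near the dotted line of equal change.

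In the authors' deposited table for this comparison, 2920 of 25100 genes had an adjusted p below 0.05, of which 1265 were higher and 1655 lower in BITC+ZA. Of these, 2887 were called in the same direction here.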

How the data were processed

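RNA-seq libraries of MDA-MB-231 cells were analysed from the deposited comparison tables. Per the submitters' processing notes, HISAT2, DESeq2 1.20.0 and GRCh38 (hg38) were used; the counting program, its annotation and any use of strand were not given in the sources used here. Per the file headers, the tables hold raw read counts per gene, which the authors did not normalise, beside the authors' own log2 fold change, p-value and q-type adjusted p. The deposited FPKM values are counts scaled by the authors to gene length and library size. Count values absent from a table (4593) were entered as 0.

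The 6 libraries of BITC+ZA and BITC were fitted with edgeR 4.0.16 (R 4.3.3; TMM, filterByExpr, robust quasi-likelihood F test, Benjamini-Hochberg over 14363 genes holding 99.85% of counts, threshold 0.05). The difference in effect of ZA was tested over 12 libraries. CPM values are TMM-normalised and not per length. The GC and length correction used natural splines with 6 degrees of freedom per library, with GC content and exon overlaps from GENCODE v29. Alternatives were DESeq2 1.42.0, limma 3.58.1 on log2(FPKM + 1) and log2(FPKM + 0.1), other filters, fits with more libraries and leaving out each library. Libraries held 15874857 to 17375664 counts over the whole series, which limits the precision of genes near the filter. Tested on simulated counts for BITC+ZA against BITC (14363 genes, 50 changed at each fold), the procedure recovered 58%, 60%, 80% and 94% of genes changed by 1.25, 1.5, 2 and 3 times, and 4.58% of its calls were false. The simulated counts held only 200 changed genes and no trend with GC content between the groups. These rates therefore do not describe the real comparison, where such a trend is present.

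Genes named were the 10 largest changes each way among coding genes, up to 4 per list, the 5 largest non-coding changes each way, the 5 smallest interaction p-values and a fixed set; not all are printed, some because they are not reported here. The 41 lists hold 804 symbols, of which 729 were tested. The members and lists were chosen with earlier results of these data known. Upstream sequences are from RefSeq (GRCh38.p14).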

Additional observations from a re-analysis of the deposited data

Results flagged for a closer look

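For 24 of the 89 genes named in the text, the log2 change on adding ZA differed with and without BITC. The first change is BITC+ZA against BITC and the second is ZA against vehicle. Their difference was tested directly in an edgeR model of all 12 libraries, at an adjusted p below 0.05. Over all genes that test called 425 of 14950 (2.84%). Some genes were named because their p-values in that test were among the smallest, and others after their values were seen. The 24 therefore do not show how common such differences are. Each value below is the first change minus the second, so a negative value means a more negative change in the presence of BITC.

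Secreted chemokines had the largest negative differences, −1.05 ± 0.128 (SE) for CXCL8 and −1.17 ± 0.261 for CXCL1, with adjusted p-values of 0.000153 and 0.015. The difference was −0.846 for COMMD6 and −0.545 for COQ2, the ubiquinone prenyltransferase. It was −0.385 for ID1, −0.289 for CCNB1 (−0.166 after GC and length correction) and −0.238 for HSP90AA1. For the metallothioneins it was −0.613 (MT1E) and −0.313 (MT2A), for the ribosomal proteins −0.435 (RPS19) and −0.533 (RPS15), for TXN −0.306 and for VIM −0.269. After GC and length correction these last 6 were no longer called.

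Positive differences were found for very large or chromatin genes, with 0.528 for AHNAK, 0.512 for UBR4, 0.597 for MDN1, 0.543 for KMT2A, 0.426 for KMT2B and 0.915 for KMT2D. After GC and length correction they were smaller, at 0.288, 0.234, 0.408, 0.274, 0.222 and 0.61 in that order, and still called. LAMA5 had a difference of 0.471 (0.204 after correction), EGR1 one of 0.298 and MKI67 one of 0.319. The nuclear RNAs MALAT1 and NEAT1 had differences of 1.17 and 0.257. MKI67 and NEAT1 were not called after correction (adjusted p = 0.118 and 0.826), and MALAT1 was not called without ZA library 1 (adjusted p = 0.0621). The other 23 differences were called without that library. That omission was a lenient check, since leaving out any single ZA library raised the number of genes called from 425 to between 675 and 921. Leaving out any single library of the other groups lowered the number to between 96 and 282. Which of the differences above stayed called in those fits is not given here, so their stability to such omissions is not shown.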

How the results depend on the processing

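Against 3979 genes called (1912 higher, 2067 lower), other normalisation, filters, DESeq2, limma and fits of 9 or 11 libraries gave 2983 to 4148. The count moved by more than 1.5 times in 5 settings that kept all 6 libraries, of which GC and length correction with replicate block is given below. All 12 libraries gave 2205 (987 higher, 1218 lower) and GC and length correction 2212 (703 higher, 1509 lower). The ZA group was left out of the main fit because an earlier reading of these data found a ZA library far from the others of its group. That choice was thus also made with the data known. Protein-coding genes without shared exons gave 1814 of 6175 (912 higher, 902 lower) and a test against a fold of 1.2 gave 152 (118 higher, 34 lower); both were chosen after seeing the data, as was the interaction fit with correction and 11 libraries. Correction lowered the share of calls that were higher to 31.8%. Limma on log2(FPKM + 1) and log2(FPKM + 0.1) called 1109 and 1100 higher, shares of 37.2% and 36.9%, and a mean of at least 5 CPM gave 53.8%. Without single libraries 2785 to 4589 genes were called (1355 to 2196 higher, 1430 to 2393 lower), and 1531 to 2096 with correction (489 to 669 higher, 1042 to 1427 lower).

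The difference in the effect of ZA, 425 calls, gave 667 with correction, 706 with no filter, 660 with correction and without ZA library 1, and 96 to 921 without single libraries. The cause was not tested.

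With the replicate number as a replicate block, 4537 genes were called, 563 in the test of the difference, and with correction and replicate block 2516 (821 higher, 1695 lower). The labels do not say whether same-numbered libraries were handled together. Their deviations from the group means correlated at 0.036, 0.0378 and 0.0155, none above the 0.1 set for pairing. Such low values do not exclude pairing. NQO1, SLC7A11 and FTL, not called in the text, were called under the block, and the differences of MT1E and MALAT1 lost their calls. It changed no other call of a named gene.

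Of 78 named genes called, 69 were called after correction and 70 without each single library. Sign changes of BITC+ZA against BITC were limited to genes that the text gives as not called. With correction, and with correction and replicate block, the log2 change became −0.11 both ways for IL11, 0.0077 and 0.0078 for SLC7A11, and −0.019 both ways for CEMIP. INSIG1 became −0.0049 with no filter and −0.016 in both limma fits. The NEAT1 difference became −0.0089 with correction and without ZA library 1. Over the fits without single libraries, with and without correction, ranges crossed 0 for FOS (−0.027 to 0.23), INSIG1 (−0.027 to 0.081), IL11 (−0.15 to 0.096), SLC7A11 (−0.14 to 0.023), MKI67 (−0.0061 to 0.088) and CEMIP (−0.051 to 0.10). The cause was not tested.

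Limits are the 3 libraries per group, the tilt with GC content that runs with the groups, genes that share exons or sequence, and depth: 11947 genes with a count were too low to test.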

Other observations

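Among non-coding genes with a mean of at least 5 CPM and groups that did not overlap, the largest increases in BITC+ZA after MT-TY were AC020916.1, an antisense gene that shares exons with 4 genes (ZSWIM4 on the opposite strand among them), and 3 others. AC020916.1 was at 22.6 ± 2.7 CPM in BITC+ZA and 11.2 ± 0.43 in BITC (SD, n = 3 each). PKD1P5, a pseudogene of PKD1, was at 8.56 ± 1.2 and 3.89 ± 1.2 CPM, and the cysteine tRNA MT-TC, which overlaps MT-TY, at 42.9 ± 4.2 and 22.7 ± 2.9 CPM. SLC9A3-AS1, which shares exons with SLC9A3 on the opposite strand, was at 7.73 ± 0.74 CPM in BITC+ZA and 4.14 ± 0.35 in BITC. The largest decreases were all processed pseudogenes. Beside RPL26P19 they were RPSAP47, at 5.77 ± 1.3 CPM in BITC+ZA and 18.1 ± 4.2 in BITC, AC010343.1, at 3.46 ± 1.1 and 10.6 ± 1.9, PFN1P1, at 4.98 ± 0.67 and 9.61 ± 0.60, and AC024293.1, at 36.9 ± 3.8 and 66.5 ± 7.3 CPM. These genes were called by edgeR in every fit without a single library and after GC and length correction. In the fit of all 12 libraries AC024293.1, AC010343.1, RPSAP47 and PFN1P1 were not called. Processed pseudogenes share sequence with their parent genes, so their reads are uncertain.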
